A study of Mus musculus with 32 samples.

Results

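Of 57701 T cell receptor beta (TRB) clonotypes read in donor T cells before transplantation, 916 were found in at least 3 of the 6 day 0 libraries, and these shared clonotypes were followed into the 25 libraries taken after transplantation. A clonotype was one V gene with one J gene and one amino acid sequence of the CDR3, the third complementarity-determining loop, and it was counted as found in a library from 1 read. The members were chosen by their presence at day 0, so their day 0 values are given as a description, and tests were run only on the day 6 libraries. In all, 177018 TRB clonotypes with a V and a J gene were read in the 31 libraries.

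The T cell receptor beta chain is assembled in each developing T cell by joining one V, one D and one J segment, with bases trimmed and added at the joints. The CDR3 spans the joints, contacts the peptide held by a major histocompatibility molecule, and differs between most T cells. A CDR3 that needs few added bases, or that many DNA sequences encode, is made again and again in different cells and animals, and clonotypes found in several individuals are often called public. After transfer into a host with other major histocompatibility molecules, donor T cells that react with the host divide, so a few clonotypes can come to hold many reads.

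The study is a mouse model of graft-versus-host disease in which C57Bl6 cells were given to mismatched Balb/c hosts. The groups were conventional CD4 cells, CD8 cells and Treg (regulatory cells that restrain other T cells) of C57Bl6 mice before transplantation (n = 2 libraries each), CD4 and CD8 cells from syngeneic hosts (n = 3 each), from allogeneic hosts (n = 4 each) and from allogeneic hosts that also received Treg at day 0 (n = 4 each), and Treg from such treated hosts (n = 3). All cells came from spleen and lymph nodes. The sample titles say day 6 and the series text says 8 days, and day 6 is used here as the name of that time; ages, sexes and the strain of the syngeneic hosts are not given in the labels. Each title starts with JL019 or JL027, a prefix whose meaning is not given, and one prefix, treatment and number was taken as 1 recipient. Since nothing states that libraries came from separate animals, p-values measure the spread between these libraries.

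Read totals ran from 11386 to 21858 per library at day 0 and from 8194 to 133115 at day 6. The reads are PCR reads, and the sources do not say whether molecular identifiers were used, so the intervals below cover counting error only. In bulk libraries more cells of a clone and more receptor RNA per cell cannot be told apart. In the RNA table of the same samples, Cd4 was between 8722 and 21481 normalised counts in 12 of 13 CD4 libraries and at most 92.8 in CD8 libraries, while Cd8b1 was at least 40800.3 in CD8 libraries and at most 1036 in those 12. The library labelled CD4 syngeneic JL019-2 stood apart, with 1659 normalised counts of Cd4 and 3160 of Cd8b1, and its comparisons are given again without it further on. Foxp3, the transcription factor that defines Treg, was lower in the day 0 Treg libraries (198 and 442) than in the day 0 CD4 libraries (1145 and 978), whereas Ikzf2, another Treg marker, was higher (19287 and 14183 against 1619 and 1770).

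The 10 members with the highest mean day 0 read share among the 18 found in all 6 day 0 libraries are printed first, because they show what the most shared receptors look like. Each is named by its V and J gene. Capitals are amino acids as deposited, from the first cysteine to the last phenylalanine of the CDR3.
TRBV16 TRBJ2-4: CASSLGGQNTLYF
TRBV16 TRBJ1-1: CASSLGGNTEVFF
TRBV16 TRBJ2-7: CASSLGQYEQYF
TRBV16 TRBJ1-1: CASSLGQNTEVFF
TRBV16 TRBJ2-7: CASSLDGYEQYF
TRBV16 TRBJ2-3: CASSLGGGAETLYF
TRBV16 TRBJ2-7: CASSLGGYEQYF
TRBV16 TRBJ2-5: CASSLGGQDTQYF
TRBV16 TRBJ1-1: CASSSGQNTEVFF
TRBV16 TRBJ2-4: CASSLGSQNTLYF

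These receptors begin with the residues CASS that TRBV16 encodes, end with those of the J gene, and carry only a few residues, often glycines, between them. All 18 members found in 6 libraries used TRBV16, and they had 12 to 14 residues. The most abundant of them at day 0, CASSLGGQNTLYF with TRBJ2-4, held 0.240% and 0.0459% of reads in the Treg libraries, 0.0439% and 0.0345% in the CD4 libraries and 0.00758% and 0.0274% in the CD8 libraries (JL019 first in each pair). It was thus read in every cell type, and its level differed between libraries of one type.

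Much of the spread over prefixes and cell types follows from the rule. Any 3 of the 6 day 0 libraries cover at least 2 cell types, and only 2 of the 20 possible sets of 3 libraries lie within 1 prefix. Of the 916 members, 647 were in exactly 3 day 0 libraries, 192 in 4, 59 in 5 and 18 in 6. Of all members, 865 (94.4%) were found under both prefixes, 12 in JL019 alone and 39 in JL027 alone. Of those in exactly 3 libraries 92.1% were under both, beside 90% of the possible sets. There were 375 members (40.9%) in all 3 cell types, 259 (28.3%) in CD4 and Treg but not CD8 libraries, 163 (17.8%) in CD4 and CD8 but not Treg libraries, and 119 (12.99%) in CD8 and Treg but not CD4 libraries. For comparison, 3407 clonotypes were in exactly 2 day 0 libraries and 53378 in 1.

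At day 0 the members were read at low levels. They held 7.90% of all day 0 reads, with a median of 6 reads each over the 6 libraries. By library they held 10.2% and 10.05% of reads in Treg, 8.54% and 8.19% in CD4, and 5.86% and 6.05% in CD8 cells, so the CD8 libraries were the lowest. No member exceeded a mean of 0.0666% over the 6 libraries. By mean read share, the most abundant member just inside the threshold, TRBV16 TRBJ2-7 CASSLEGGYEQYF in exactly 3 libraries, had 22 day 0 reads, and the most abundant clonotype just outside it, a TRBV16 TRBJ2-2 receptor of 15 residues in 2 libraries, had 33.

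Shared clonotypes had shorter CDR3s than other clonotypes. Their mean length was 13.24 residues (SD 1.20, n = 916 clonotypes), against 13.59 (SD 1.26) for clonotypes in 2 day 0 libraries, 13.94 (SD 1.41) for those in 1 and 13.92 (SD 1.40) for those read only at day 6. The length went down with the number of libraries, from 13.32 in exactly 3 to 13.10 in 4, 13.05 in 5 and 12.61 in 6. CDR3s of 12 residues or fewer made up 26.3% of the members and 14.9% of 1-library clonotypes, and those of 15 or more made up 13.5% and 34.9%. Clonotypes are not replicates of a condition and the members share V genes, so these lengths are descriptive and have no p-value.

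**Figure D1:**
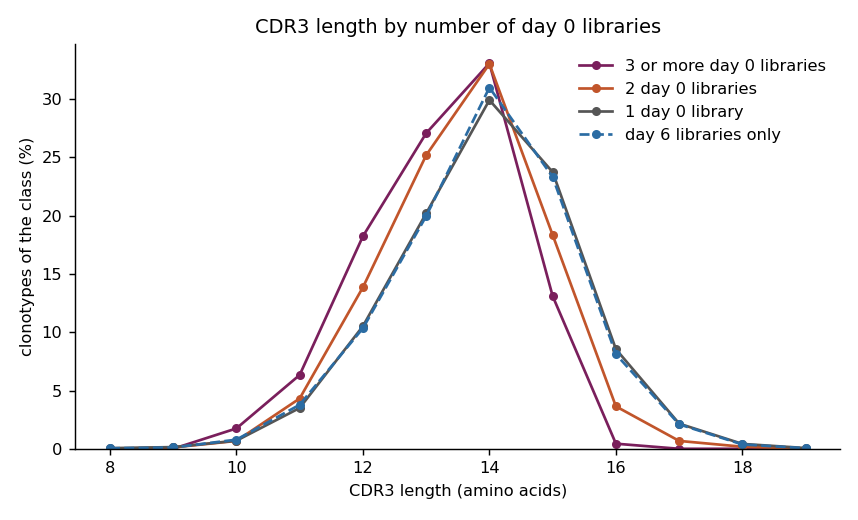
Share of clonotypes (%) at each CDR3 length in amino acids, for clonotypes in at least 3 day 0 libraries, in 2, in 1, and read only at day 6 (lengths 8 to 19 shown). The curve of the shared clonotypes lies to the left, with 26.3% at 12 residues or fewer against 14.9% for 1-library clonotypes, while the 1-library and day 6 curves lie on each other.

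The difference in length was also seen within the main V gene and among the clonotypes read in each library. Among TRBV16 clonotypes the mean was 13.22 residues for members, 13.62 for those in 2 libraries and 14.11 for those in 1. Members found in a library were shorter on average than the other clonotypes of that library in 31 of 31 libraries, with a difference of -0.769 to -0.552 residues at day 0 and of -1.13 to -0.437 at day 6. Since length is fixed by the sequence, these are the same 916 receptors seen again and not a separate test.

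The residues that neither V nor J gene explains were also fewer. Counting from each end, residues were set aside while they matched the one carried by at least 0.5 of the clonotypes with that V or J gene, and the rest were called middle residues. Members had a mean of 3.65 middle residues, against 4.06 in 2-library, 4.78 in 1-library and 5.21 in day 6 only clonotypes. Leucine stood at position 5, counted from the first cysteine, in 61.6% of the members, against 41.6% and 28.2% in 2-library and 1-library clonotypes. V gene use, which differs between these classes, moves with this: within TRBV16 the shares were 69.4%, 51.9% and 44.8%, and within the other V genes 42.0%, 30.1% and 20.3%. A pair of adjacent glycines was about equally common, in 27.3%, 25.98% and 25.4%.

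V gene use was narrow. The members used 17 V genes, but 654 of 916 (71.4%) used TRBV16, 105 (11.5%) TRBV31 and 73 (8.0%) TRBV4, and 6 V genes had a single member each. TRBV16 made up 53.1% of 2-library and 32.1% of 1-library clonotypes, and its share of the members went from 66.8% in exactly 3 libraries to 78.6% in 4, 89.8% in 5 and 100% in 6. The Trbv16 gene lies on chromosome 6 (chr6:41151791-41152230, GRCm38.p6, RefSeq). Among J genes, TRBJ2-7 was the most frequent, in 27.8% of the members against 19.5% of 1-library clonotypes, followed by TRBJ2-5 (15.1%) and TRBJ1-1 (12.3%).

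**Figure D2:**
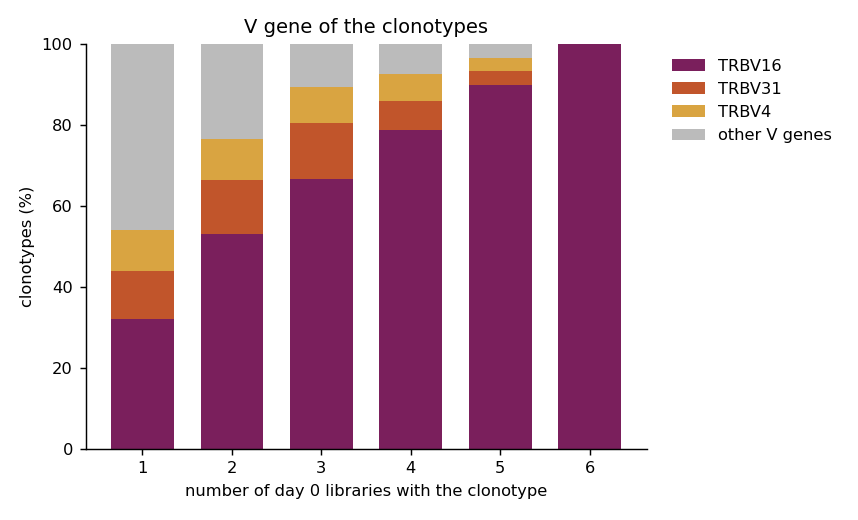
Share of clonotypes (%) by V gene, stacked, for clonotypes found in 1 to 6 day 0 libraries. TRBV16 takes 32.1% of the bar at 1 library, 66.8% at 3 and 100% at 6.

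TRBV16 also held an unusually large part of all receptor reads. It took 39.4% to 51.9% of TRB reads in the day 0 libraries, while Trbv16 made up 7.59% to 11.5% of the RNA of 23 Trbv genes per length in the same samples. A clonotype with more reads is more likely to be seen in several libraries, so members were set beside other clonotypes with the same number of day 0 reads. Equal reads are not equal abundance. A member with 3 reads has 1 in each of 3 libraries, which come from separate molecules unless reads crossed between libraries. Such crossing was not tested, and 145 of the 916 members had at most 1 read in any day 0 library. By contrast, 3 reads in 1 library can be PCR copies of a single molecule. The matched values are therefore descriptions. Among clonotypes with 3 reads at day 0, TRBV16 made up 42.4% of 132 members, 57.1% of 857 clonotypes in 2 libraries and 70.4% of 1999 in 1 library. With 4 reads the order was the same (59.6%, 75.2% and 82.2%), and with 5 reads too (61.5%, 81.6% and 88.3%). At these read numbers TRBV16 was less frequent among the members than among other clonotypes. What sets the gap between receptor reads and RNA was not tested.

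CDR3 length had the same order at these read numbers. At 3 reads the mean length was 13.38 residues for members, 13.63 for 2-library and 14.03 for 1-library clonotypes. At 4 reads it was 13.31, 13.57 and 14.01. At 5 reads it was 13.52, 13.53 and 13.95, with members and 2-library clonotypes at nearly the same length.

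Shared clonotypes were found again after transplantation more often than others. Of the 916 members, 761 (83.1%) were read in at least 1 of the 25 day 6 libraries, against 46.2% of 2-library and 12.4% of 1-library clonotypes. The share went from 78.5% of members in exactly 3 day 0 libraries to 92.7% in 4, 96.6% in 5 and all 18 in 6. A member was found in a mean of 3.23 day 6 libraries, a 2-library clonotype in 0.969 and a 1-library clonotype in 0.186.

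The order was the same at equal day 0 reads, with the limit on equal reads given above. With 3 reads, 63.6% of members, 45.0% of 2-library and 21.2% of 1-library clonotypes were found at day 6. With 4 reads the values were 83.4%, 53.7% and 21.3%, and with 5 reads 73.8%, 58.1% and 26.02%. Taking the day 6 libraries one by one, the members with 3 reads were found more often than the 1-library clonotypes in 25 of 25 libraries and more often than the 2-library clonotypes in 22. With 4 reads these numbers were 25 and 21, and with 5 reads 24 and 20.

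**Figure D3:**
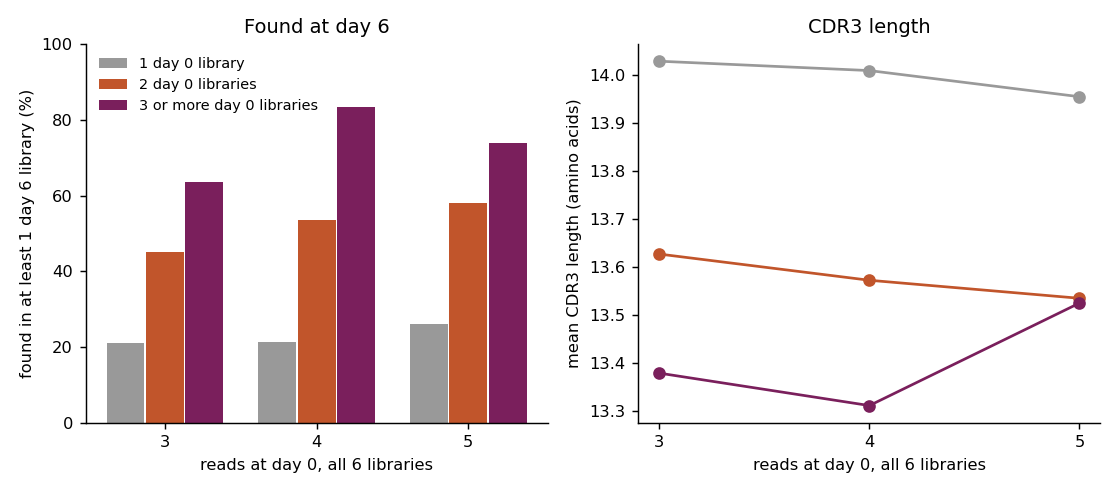
Clonotypes with 3, 4 or 5 reads over the 6 day 0 libraries, by the number of day 0 libraries that held them. Left, the share (%) found in at least 1 of the 25 day 6 libraries, highest for the shared clonotypes at each read number (63.6% against 21.2% for 1-library clonotypes at 3 reads); right, mean CDR3 length in amino acids on an axis that does not start at 0, 13.38 for shared and 14.03 for 1-library clonotypes at 3 reads.

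The members found in most day 6 libraries used TRBV16. The first 5 are printed, where the last is 1 of 3 members tied at 13 libraries and has the highest mean day 6 read share of them. Each is given with its J gene to show how alike they are.
TRBV16 TRBJ2-4: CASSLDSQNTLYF
TRBV16 TRBJ2-4: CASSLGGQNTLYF
TRBV16 TRBJ2-7: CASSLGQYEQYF
TRBV16 TRBJ2-5: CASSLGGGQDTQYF
TRBV16 TRBJ2-7: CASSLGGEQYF

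They were read in 16, 15, 14, 14 and 13 of the 25 day 6 libraries in the order printed. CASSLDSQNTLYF was absent from both CD8 libraries at day 0, with 0.0993% and 0.0689% of reads in Treg and 0.0176% and 0.0207% in CD4 cells (JL019 first). At day 6 it held 0.231%, 0.0764%, 0.00608% and 0.0644% in the CD4 libraries of allogeneic hosts (JL027-1, JL027-2, JL019-1 and JL019-2), and it was at 0 in all 4 CD8 libraries of Treg-treated hosts. In 3 of 4 CD8 libraries of allogeneic hosts it was also at 0, while all 3 CD8 libraries of syngeneic hosts held it, at 0.0425%, 0.00744% and 0.0119%. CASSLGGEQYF, the shortest of the 5, was highest at day 0 in CD8 cells (0.0834% and 0.124%) and at day 6 was in all 3 CD8 libraries of syngeneic hosts (0.0708%, 0.186% and 0.186%) but in no CD4 library of allogeneic hosts.

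How many members remained at day 6 differed between the groups. CD8 cells of syngeneic hosts held 517 of the 916 in at least 1 of 3 libraries, and 113 in all 3. CD4 cells held 400 in syngeneic (3 libraries), 336 in allogeneic and 320 in Treg-treated hosts (4 libraries each). CD8 cells held 175 in allogeneic and 175 in Treg-treated hosts (4 libraries each), and Treg 105 (3 libraries). Other day 0 clonotypes had the same order of CD8 groups. Between CD8 cells of syngeneic and allogeneic hosts the share found in any library went from 56.4% to 19.1% of the members, from 25.2% to 7.34% of 2-library and from 5.42% to 1.59% of 1-library clonotypes. All 3 classes were thus found less often in allogeneic CD8 cells.

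Since depth sets how many clonotypes are read, every library was thinned to 8194 reads, the lowest total. CD8 libraries then held 207, 223 and 195 members in syngeneic hosts (JL019-1, JL019-2, JL027), a mean of 209 ± 14.1 (SD, n = 3). In allogeneic hosts they held 38.5, 41.4, 27.5 and 64.3 (JL027-1, JL027-2, JL019-1, JL019-2; 42.9 ± 15.4, SD, n = 4), and in Treg-treated hosts 36.7, 27.7, 33.3 and 39.5 in the same order (34.3 ± 5.07, SD, n = 4). All syngeneic CD8 libraries were above all others. Allogeneic minus syngeneic was -166 members (two-sided exact permutation test, p = 0.0571, adjusted 0.114 over 8 tests) and Treg-treated minus syngeneic -174 (exact p = 0.0571, adjusted 0.114), where 0.0571 is the smallest p that 4 against 3 libraries allow. Allogeneic and Treg-treated CD8 libraries overlapped (exact p = 0.400).

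The number of all clonotypes in the thinned CD8 libraries was also lower, with a mean of 6490 in syngeneic, 2329 in allogeneic and 1937 in Treg-treated hosts. As a share of clonotypes the members were 3.21% ± 0.11 in syngeneic CD8 libraries (SD, n = 3), 1.81% ± 0.467 in allogeneic (SD, n = 4) and 1.77% ± 0.239 in Treg-treated hosts (SD, n = 4), again without overlap between syngeneic and the others. With 3 syngeneic libraries the exact p was 0.0571 for each (adjusted 0.114). This share is taken over all clonotypes, most of which were read only at day 6, and the 2-library and 1-library clonotypes were found less often in these hosts too, as given above.

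CD4 libraries kept more members than CD8 libraries in allogeneic and Treg-treated hosts, but not in syngeneic hosts. Thinned, they held 187, 153 and 82.8 in syngeneic hosts (JL019-1, JL019-2, JL027; 141 ± 53.3, SD, n = 3), 110, 99.8, 106 and 87.5 in allogeneic hosts (101 ± 9.76, SD, n = 4) and 80.5, 80.2, 88.6 and 84.7 in Treg-treated hosts (83.5 ± 3.97, SD, n = 4; both in the order JL027-1, JL027-2, JL019-1, JL019-2). The syngeneic libraries lay on both sides of the allogeneic ones (exact p = 0.286), and the lowest of them lay within the Treg-treated range (exact p = 0.171). Treg-treated minus allogeneic was -17.2 members, with 1 allogeneic library inside the treated range (exact p = 0.0571, adjusted 0.114). As a share of clonotypes the difference was 0.00724 percentage points (3.24% in both, exact p = 0.943).

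Treg of treated hosts held 30.2, 41.2 and 41.0 members (JL027, JL019-1, JL019-2; 37.4 ± 6.31, SD, n = 3), all below the CD4 libraries of treated hosts (exact p = 0.0571, adjusted 0.114). All clonotypes were fewer as well, with a mean of 2191 in these Treg and 2579 in the CD4 libraries. The members were 1.70% ± 0.175 of clonotypes in Treg (SD, n = 3) and 3.24% ± 0.231 in CD4 cells (SD, n = 4), again without overlap (exact p = 0.0571, adjusted 0.114). At day 0 the Treg libraries had held 408 and 440 members, 6.76% of a mean of 6273 clonotypes, and the CD4 libraries 434 and 428, 6.15% of 7006.

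The reads that members held showed another order. In CD4 cells the read share was 4.23%, 4.97% and 3.75% in syngeneic hosts (JL019-1, JL019-2, JL027; 4.32% ± 0.613, SD, n = 3) and 11.9%, 9.09%, 9.10% and 6.96% in allogeneic hosts (JL027-1, JL027-2, JL019-1, JL019-2; 9.26% ± 2.01, SD, n = 4). With Treg it was 7.52%, 3.71%, 5.87% and 5.60% in that order (5.68% ± 1.56, SD, n = 4). All 4 allogeneic libraries were above all 3 syngeneic ones, and 1 Treg-treated library lay within the allogeneic range.

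The difference between allogeneic and syngeneic CD4 libraries was 4.94 percentage points (exact permutation test, p = 0.0571, the smallest possible, adjusted 0.190 over 8 tests), with no overlap. Treg-treated minus allogeneic was -3.58 percentage points (exact p = 0.0571, adjusted 0.190), and -2.29 within JL019 and -4.87 within JL027 (2 libraries a group each). Neither passed 0.05. Clonotypes in 2 day 0 libraries held 3.92% ± 0.706 of the CD4 reads in syngeneic (SD, n = 3), 5.66% ± 0.871 in allogeneic and 5.89% ± 2.19 in Treg-treated hosts (SD, n = 4 each). Their allogeneic mean was thus also above the syngeneic one, with overlap (exact p = 0.114), while the Treg-treated and allogeneic means differed little (exact p = 0.943). The log2 ratio of member reads to the reads of 2-library clonotypes overlapped between allogeneic and syngeneic CD4 libraries (0.698 against 0.147, exact p = 0.171). The overlap rested on CD4 syngeneic JL019-2 (0.63), since the other syngeneic libraries, at -0.127 and -0.0624, lay below all allogeneic ones (0.539 to 1.03; exact p = 0.133 without it, the smallest possible). It did not overlap between Treg-treated and allogeneic ones (0.00116 against 0.698, exact p = 0.0286, adjusted 0.229).

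The higher CD4 share in allogeneic than in syngeneic hosts lay in TRBV16 members, whereas with Treg the mean was lower for both kinds of V gene. Of all CD4 reads, TRBV16 members held a mean of 3.17% in syngeneic, 8.55% in allogeneic and 5.24% in Treg-treated hosts, while members with other V genes held 1.15%, 0.706% and 0.433%. All TRBV16 clonotypes together, shared or not, took 31.9% ± 4.09 of CD4 reads in syngeneic (SD, n = 3), 56.7% ± 1.39 in allogeneic and 56.6% ± 2.30 in Treg-treated hosts (SD, n = 4 each), so TRBV16 as a whole moved with the allogeneic groups. In the RNA, Trbv16 was 5.48%, 13.4% and 13.5% of Trbv transcripts in the same groups. Within TRBV16 reads the members held 9.99% ± 0.748 in syngeneic, 15.1% ± 3.81 in allogeneic and 9.27% ± 2.74 in Treg-treated hosts (exact p = 0.0571 for allogeneic against syngeneic and 0.0857 for Treg-treated against allogeneic). The same rule on the alpha chain gave no such pattern, with CD4 read shares of 22.7%, 22.5% and 23.7% for 1483 shared TRA clonotypes.

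Dividing the share of reads by the share of clonotypes gives the size of the average member relative to the average clonotype, a measure chosen after the data were seen. In CD4 cells it was 1.31, 1.65 and 1.62 in syngeneic hosts, 3.33, 2.70, 2.83 and 2.49 in allogeneic hosts and 2.35, 1.21, 1.64 and 1.80 in Treg-treated hosts (libraries in the orders above). The allogeneic values were above those of all other CD4 libraries at day 6. Treg-treated minus allogeneic was -1.09 (exact permutation test, p = 0.0286, the smallest that 4 against 4 allow, adjusted 0.152 over 8 tests), and allogeneic minus syngeneic was 1.31 (exact p = 0.0571, adjusted 0.152). The first was not kept for clonotypes in at least 2 day 0 libraries (-0.499, exact p = 0.200), for the CDR3 alone (-0.25, exact p = 0.229) or on the alpha chain, where the sign was the opposite (0.162, exact p = 0.771). Without thinning the Treg-treated and allogeneic CD4 libraries were not apart either. CD4 Treg-treated JL027-1 then held 7.52% of reads in 106 of 4479 clonotypes, and CD4 allogeneic JL019-2 held 6.96% in 95 of 3800.

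The same ratio was 3.03, 2.37 and 4.41 in Treg of treated hosts (JL027, JL019-1, JL019-2; 3.27 ± 1.04, SD, n = 3), just above the CD4 libraries of those hosts without overlap (1.75 ± 0.47, SD, n = 4; exact p = 0.0571, adjusted 0.152). In CD8 cells it was 1.54, 1.70 and 1.64 in syngeneic hosts, 1.28, 2.03, 4.95 and 2.99 in allogeneic hosts and 1.62, 1.77, 4.21 and 1.56 in Treg-treated hosts (libraries in the orders above). The CD8 groups overlapped (exact p = 0.286 for allogeneic against syngeneic and 0.6 for Treg-treated against allogeneic).

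In CD8 cells the read share of the members was 4.82%, 5.66% and 5.21% in syngeneic hosts (JL019-1, JL019-2, JL027), 2.23%, 3.92%, 6.09% and 7.05% in allogeneic hosts and 3.38%, 2.71%, 7.03% and 2.80% in Treg-treated hosts (JL027-1, JL027-2, JL019-1, JL019-2). The groups overlapped, and the exact p-values were 0.800 for allogeneic against syngeneic, 0.629 for Treg-treated against allogeneic and 0.286 for Treg-treated against syngeneic. With the most abundant member of each library left out, allogeneic minus syngeneic moved from -0.405 to -1.81 percentage points (3.25% against 5.06%, exact p = 0.0571, the smallest possible). Allogeneic minus syngeneic had opposite signs within the prefixes, 1.33 percentage points in JL019 and -2.13 in JL027. Treg held 4.55%, 4.22% and 8.05% (JL027, JL019-1, JL019-2), within the range of the CD4 libraries except for the last (exact p = 0.914). On the alpha chain the allogeneic CD8 share was lower than the syngeneic one (15.6% against 24.5%, exact p = 0.0571).

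**Figure D4:**
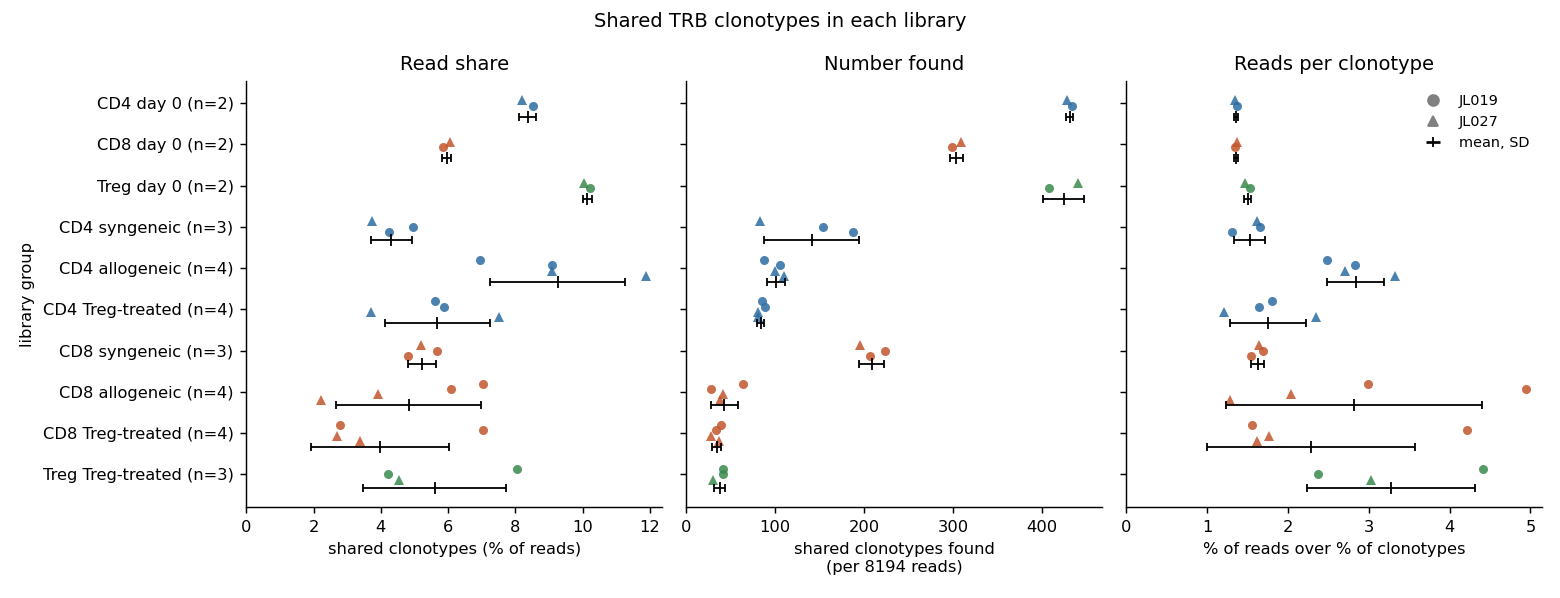
Each point is 1 library (circles JL019, triangles JL027), with the group mean and SD as a black bar below, for CD4 (blue), CD8 (orange) and Treg (green) libraries. Left, read share of the shared clonotypes (%), where all allogeneic CD4 libraries lie above all syngeneic ones. Middle, number of shared clonotypes found in 8194 reads, where CD8 libraries of syngeneic hosts (195 to 223) lie far above those of the other hosts (27.5 to 64.3). Right, share of reads divided by share of clonotypes found in 8194 reads.

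Comparing both cell types of the same recipient, CD8 libraries held 1.98 percentage points fewer member reads than CD4 libraries (11 recipients, exact sign-flip permutation test, p = 0.0713, adjusted 0.190), with CD8 higher in 5 of 11. Without allogeneic recipient JL027-1 the difference was -1.21 (exact permutation p = 0.143). The members were not alone in this. Clonotypes in 2 day 0 libraries differed by -1.25 percentage points (exact sign-flip permutation p = 0.0635, adjusted 0.229), with CD8 higher in 2 of 11. For members with V genes other than TRBV16 the CD8 share was lower by 0.434 percentage points in all 11 recipients (0.294% against 0.727%, exact permutation p = 0.000977, the smallest possible, not adjusted), a split chosen after the data were seen. Taken as a share of the reads outside TRBV16 it was 0.588% against 1.43%, lower in 10 of 11 recipients (exact permutation p = 0.00293, adjusted 0.0234 over 8 tests). The choice of members limits the tests on members. Every member was in a CD4 or Treg library at day 0, while 259 were in no CD8 library. Outside TRBV16 members held 1.35% and 1.69% of day 0 reads in CD8 and 3.42% and 3.19% in CD4 libraries (JL019 first). A lower CD8 share at day 6 is therefore not independent of the rule.

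In thinned libraries CD8 cells held more members than CD4 cells in 3 of 3 syngeneic recipients (mean difference 67.5) and fewer in 4 of 4 allogeneic (-57.8) and 4 of 4 Treg-treated ones (-49.2). Syngeneic CD8 libraries also held more clonotypes of all kinds than CD4 libraries (6490 against 4816). The members' share of clonotypes was higher in CD8 cells in 2 of 3 syngeneic recipients (3.13% against 3.24% in JL019-1, where it was lower), and lower in all 4 allogeneic and all 4 Treg-treated recipients. Over the 11 recipients this share was 2.18% in CD8 and 3.13% in CD4 cells (exact sign-flip permutation test, p = 0.0117, adjusted 0.0938 over 8 tests). At day 0 it had been 4.37% and 4.40% in CD8 and 6.21% and 6.09% in CD4 libraries (JL019 first). The limit set by the choice of members thus holds here too.

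Without the library labelled CD4 syngeneic JL019-2, the comparisons with syngeneic CD4 cells kept the direction and the overlap described above, except for members of other V genes and for the log2 ratio to 2-library reads, and 4 against 2 libraries cannot go below an exact p of 0.133. The syngeneic CD4 means were then 3.99% of reads, 135 members, 2.78% of clonotypes and a ratio of 1.46. TRBV16 held 29.7% of those reads, and members 10.4% of the TRBV16 reads. Against allogeneic hosts, the difference for members of other V genes was -0.187 percentage points of all reads, against -0.442 with the library. As a share of the reads outside TRBV16 it changed sign, from -0.0584 to 0.384 (exact p = 1 in both). Between CD8 and CD4 cells of the 10 remaining recipients, the read share differed by -2.25 percentage points (exact permutation p = 0.0625) and the number of members by -29.6 (exact p = 0.137). The share of clonotypes differed by -1.08 (exact p = 0.00977) and the read share of members of other V genes by -0.353 (exact p = 0.00195, the smallest possible). Clonotypes in 2 day 0 libraries, which are not members, differed by -1.56 percentage points of reads (exact permutation p = 0.00586), with CD8 higher in 1 of 10 recipients. The limit set by the choice of members, given above, holds for the tests on members.

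Members found at day 6 followed the cell type in which they had been read at day 0. The 259 members read in no CD8 library at day 0 held 8.47% of the member reads in day 6 CD8 libraries (range 0.891% to 21.7%) and 24.8% in CD4 libraries (16.2% to 38.7%), and they were lower in CD8 than in CD4 cells of the same recipient in 10 of 11 recipients (exact sign-flip permutation test, p = 0.00195, adjusted 0.00293 over 6 tests). These 259 passed the rule through CD4 and Treg libraries alone, so the split and the rule use the same day 0 presence. Day 6 reads were used in neither. The 265 members in both CD8 libraries at day 0 held 64.3% of the member reads in day 6 CD8 libraries (53.7% to 81.0%) and 28.0% in CD4 libraries (16.2% to 47.1%). CD8 was higher in 11 of 11 recipients and the ranges did not overlap (exact permutation p = 0.000977, the smallest possible, adjusted 0.00195).

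The same held when each member counted once. Members without a CD8 library at day 0 were 12.3% ± 4.73 of those found in day 6 CD8 libraries and 27.5% ± 5.26 of those found in CD4 libraries (SD, n = 11, lower in 11 of 11, exact permutation p = 0.000977, adjusted 0.00195), beside 28.3% of all members. The library labelled CD4 syngeneic JL019-2 had 28.1%. For clonotypes in 1 day 0 library, 42.2% of which came from CD8 cells, the CD8 origin made up 57.4% to 60.4% of those found again in CD8 libraries by group mean and 30.7% to 32.4% in CD4 libraries, so the members were not alone in this. In Treg libraries at day 6, members in both Treg libraries at day 0 were 45.5% ± 8.82 of those found (SD, n = 3), against 33.9% ± 5.34 in CD4 libraries of treated hosts (SD, n = 4), with overlap (exact p = 0.171).

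**Figure D5:**
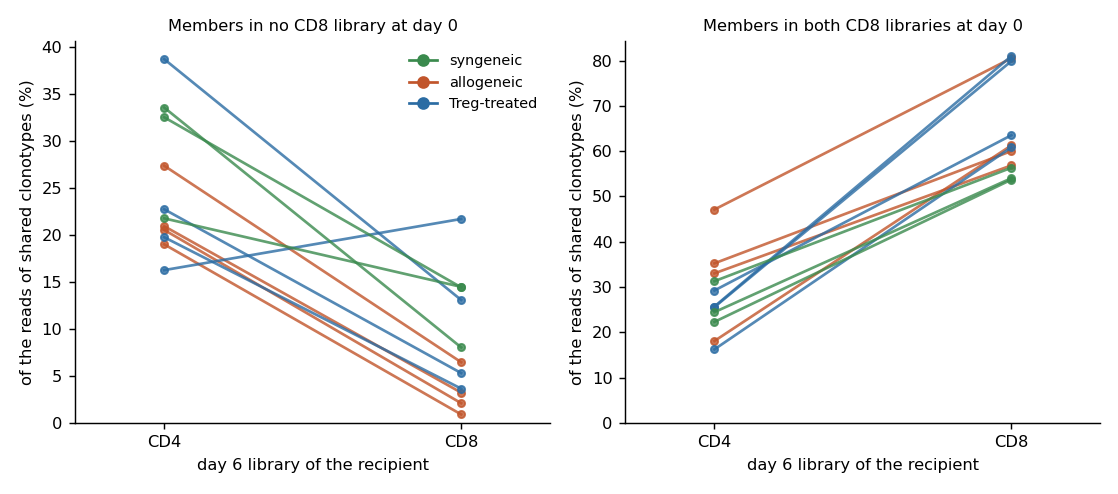
Each line joins the CD4 and the CD8 library of 1 recipient at day 6, by host group. Left, the share (%) of member reads held by members read in no CD8 library at day 0, lower in CD8 cells in 10 of 11 recipients; right, by members read in both CD8 libraries at day 0, higher in CD8 cells in all 11.

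A small number of members held most of the member reads in allogeneic hosts, and the other clonotypes were concentrated likewise. The fraction 0.5 of the member reads was reached with 92 to 146 members at day 0 and with 17 to 62 in syngeneic hosts, but with 1 to 14 in the allogeneic, Treg-treated and Treg libraries of day 6. Clonotypes in 2 day 0 libraries reached the fraction 0.5 of their own reads with 24 to 99 clonotypes in syngeneic hosts and with 2 to 11 in the allogeneic, Treg-treated and Treg libraries. In all, 38 members reached 0.5% of a day 6 library, 34 of them in a single library and none in a syngeneic library. TRBV16 was used by 35 of the 38 (92.1%), beside 74.8% of the members found at day 6. Among all other clonotypes 428 reached 0.5%, 427 of them in a single library, and 15 did so in a syngeneic library. TRBV16 was used by 68.5% of the 428, beside 29.8% of the other clonotypes found at day 6. The 428 were 31 clonotypes of 2 day 0 libraries (28 with TRBV16), 74 of 1 day 0 library (65 with TRBV16) and 323 read only at day 6 (200 with TRBV16). Of the clonotypes found at day 6, 4.99% of the members, 1.97% of the 2-library, 1.12% of the 1-library and 0.271% of the day 6 only clonotypes reached 0.5%. A member was read in more day 6 libraries and so had more chances to do so. Counted per clonotype and library with reads, the shares were 1.49% (44 of 2962), 0.969%, 0.744% and 0.25% in the same order. The leading members of the allogeneic and treated groups, the top 2 of each by mean read share, are printed to set beside the most shared ones above.
TRBV16 TRBJ2-5: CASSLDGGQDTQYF
TRBV16 TRBJ2-1: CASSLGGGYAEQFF
TRBV16 TRBJ2-5: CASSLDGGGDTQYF
TRBV16 TRBJ2-7: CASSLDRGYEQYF
TRBV16 TRBJ2-1: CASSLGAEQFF
TRBV16 TRBJ2-7: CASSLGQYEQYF
TRBV31 TRBJ2-5: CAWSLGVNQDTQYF
TRBV16 TRBJ2-7: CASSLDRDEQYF

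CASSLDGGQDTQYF was the leading member in CD4 cells of both allogeneic groups. It had 6 reads at day 0, in 3 libraries, and none in Treg. At day 6 it held 1.91%, 0.153%, 0% and 0.902% in CD4 cells of allogeneic hosts and 1.03%, 0.138%, 0.00724% and 1.28% in CD4 cells of Treg-treated hosts (JL027-1, JL027-2, JL019-1, JL019-2). It was at 0 in all 6 syngeneic and all 3 Treg libraries, and reached at most 0.0578% in a CD8 library. It was thus read in 7 of 8 CD4 libraries of allogeneic and Treg-treated hosts, at levels that differed widely between them. Its neighbour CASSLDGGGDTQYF reached 1.00% in CD4 Treg-treated JL027-1 and 0.438% in CD4 allogeneic JL019-1, and at most 0.0344% in the other CD4 libraries of these groups.

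In CD8 cells each leading member was large in few recipients. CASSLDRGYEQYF held 2.72% of CD8 reads in allogeneic JL019-2 (95% Wilson interval 2.43% to 3.03%) and 0 in the other 3 allogeneic CD8 libraries. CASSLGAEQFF held 2.63% in CD8 allogeneic JL019-1 and 2.02% in CD8 Treg-treated JL027-1, and was present in all 3 syngeneic CD8 libraries at 0.0425%, 0.0669% and 0.0792%. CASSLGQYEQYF, one of the 18 found in every day 0 library, held 2.23% in CD8 Treg-treated JL019-1, 0.353% in JL027-2 and 0.0195% in JL019-2.

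Among the Treg of treated hosts, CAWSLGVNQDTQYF, with TRBV31, held 2.21% in JL019-2 and 0 in the other 2 libraries. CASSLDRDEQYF held 1.17% in JL019-2, 0.512% in JL019-1 and 0 in JL027. In syngeneic hosts no member came near these levels in CD4 cells: the highest were TRBV16 TRBJ2-7 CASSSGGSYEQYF at 0.338% in JL027 and TRBV31 TRBJ2-5 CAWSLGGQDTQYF at 0.305% in JL019-2. In syngeneic CD8 cells TRBV31 TRBJ1-1 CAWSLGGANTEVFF reached 0.269% in JL027.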

How the data were processed

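Per the labels' protocols, receptor chains were amplified by nested PCR from full-length cDNA. The TRB and TRA tables hold counts of reads per clonotype and library, deposited by the authors with the library total and the percent of that total; read software, error correction and molecular identifiers are not given in the sources used here. In 1 TRB library the rows sum to 1 read less than the deposited total, and own sums were used. Entries without V or J gene (2430 of 211325 TRB entries, 0.795% of reads) stayed in the totals and were no members. The RNA table holds a signal, counts scaled between libraries by the authors; the submitters' processing notes name kallisto and GRCm38. It was used for marker genes and Trbv16 alone, divided by the gene's span in RefSeq.

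The members, measures and printed clonotypes were chosen with earlier results of these data known. Read shares used the library total. Numbers found are means of 20 random draws of 8194 reads. Comparisons of groups used exact permutation tests, two-sided, and CD4 with CD8 of 1 recipient by exact sign flips over 11 recipients, with Benjamini-Hochberg adjustment over the 8 comparisons of a measure. The reads-per-clonotype ratio, the TRBV16 split, the matching on reads, the split by day 0 cell type (6 tests), the difference between hosts, the counts of large clonotypes and the values without the library labelled CD4 syngeneic JL019-2 were added after seeing the data. Clonotypes were printed by rule: the 10 most abundant in all 6 day 0 libraries, the top 2 of each day 6 group, the 5 in most day 6 libraries and the most abundant just inside and outside the threshold, with CDR3s of 15 or more residues not printed. No test ran across many features. The permutation and thinning code was tested on simulated data. Alternatives were other day 0 thresholds, CDR3 alone, the TRA chain, other denominators, no thinning (for the number of members alone), prefix or replicate blocks and leaving out each library. Replicate labels did not pair the libraries: over 19 V genes, deviations of same-labelled allogeneic and Treg-treated libraries correlated above 0.1 in 2 of 8 pairs. Python 3.11.15, numpy 2.4.6, pandas 2.3.3 and scipy 1.17.1 were used.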

Additional observations from a re-analysis of the deposited data

Results flagged for a closer look

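The CD8 library of Treg-treated recipient JL019-1 stood apart from the other 3 of its group in the read share of shared clonotypes (7.03%). It also did so in their reads relative to their clonotypes, with clonotypes counted in thinned libraries (4.21). TRBV16 TRBJ2-7 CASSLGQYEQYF, at 2.23% of that library, also stood apart from the other 3. A library was said to stand apart where its gap to the nearest other library, divided by the range of its group of 4, was above Dixon's 95% critical value. At that level chance sets apart about 1 in 20 groups where values follow a normal distribution. Read shares of single clonotypes are often 0 and need not follow it. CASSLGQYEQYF was also named for being the highest of its group, which favours such a value.

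Single libraries also stood apart for 5 other leading values. These were TRBV16 TRBJ2-1 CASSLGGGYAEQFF at 1.73% in CD4 allogeneic JL027-1, TRBV16 TRBJ2-5 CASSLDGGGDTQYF at 1.00% in CD4 Treg-treated JL027-1, TRBV16 TRBJ2-7 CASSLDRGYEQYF at 2.72% in CD8 allogeneic JL019-2, and TRBV16 TRBJ2-1 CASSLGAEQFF at 2.63% in CD8 allogeneic JL019-1 and 2.02% in CD8 Treg-treated JL027-1. These clonotypes were named for being the highest of their group, which favours such values.

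The number of shared clonotypes in CD8 minus CD4 cells of a recipient was positive in every syngeneic recipient and negative in every allogeneic and every Treg-treated one. The difference between hosts was -125 members for allogeneic against syngeneic and -117 for Treg-treated against syngeneic (exact permutation p = 0.0571 each, the smallest that 4 against 3 recipients allow, adjusted 0.171 over 9 tests). As a share of all clonotypes the sign was not the same in every syngeneic recipient. CD8 minus CD4 was -0.115, 0.327 and 0.858 percentage points there (JL019-1, JL019-2, JL027), -1.98 to -0.439 in allogeneic and -1.91 to -1.11 in Treg-treated recipients. The differences between hosts were -1.78 and -1.83 (exact permutation p = 0.0571 each, adjusted 0.0857 over 3 tests).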

How the results depend on the processing

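The 4 CD8 against CD4 measures of the split by day 0 cell type kept their direction and stayed below p = 0.05 under the alternatives run for them, which were leaving out each of the 11 recipients, free permutation, TRBV16 members alone and members of other V genes alone; the 2 Treg measures (exact p = 0.171 and 0.514) were not rerun. Of 543 alternative values over 28 results, 481 kept direction and side of 0.05, 11 newly passed, 13 no longer passed and 38 changed sign, mostly differences that were small to begin with. The causes were not tested.

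The lower reads per clonotype in CD4 cells with Treg than without also passed for at least 4 libraries, both prefixes, at least 2 reads, day 0 thinned and TRBV16 members alone. It did not pass at -0.499 for at least 2 day 0 libraries, -0.25 for the CDR3 alone, -0.466 for other V genes and 0.162 on the TRA chain. It could not pass with the prefix as a block (-1.09, smallest possible p 0.0556), with the replicate block (-1.09, smallest 0.125) and without single libraries (-1.29 to -0.91, smallest 0.0571), and was at that smallest p in each. Treg-treated against syngeneic CD4 cells changed sign to -0.0335 for at least 2 reads at day 0, -0.277 for at least 4 libraries and -0.489 for other V genes, and allogeneic against syngeneic to -0.0229 for other V genes. In CD8 cells the ratio changed sign for allogeneic against syngeneic on TRA (-0.211) and for other V genes (-0.578), for Treg-treated against allogeneic on TRA (0.212), for the CDR3 alone (0.168) and other V genes (0.287), and for Treg-treated against syngeneic for other V genes (-0.291). Without single libraries it ran from -1.17 to 0.186 for Treg-treated against allogeneic (0.186 without CD8 allogeneic JL019-1). Treg against CD4 cells was -0.283 on TRA. CD8 against CD4 of a recipient was -0.0222 for at least 2 libraries, -0.0288 for the CDR3 alone, -0.278 on TRA, -0.286 for other V genes and -0.0198 to 0.442 without single recipients (-0.0198 without Treg-treated JL019-1).

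For the read share in percentage points, Treg-treated against allogeneic CD4 cells passed at exact p = 0.0286 for at least 4 libraries (-1.61) and at least 2 reads (-1.29) but was 1.21 on TRA. Allogeneic against syngeneic CD4 cells was -0.251 on TRA and -0.442 for other V genes, and Treg-treated against syngeneic -0.715 for other V genes. CD8 Treg-treated against allogeneic changed sign for at least 2 reads (0.339), TRA (1.01) and other V genes (0.106), and CD8 allogeneic against syngeneic to 1.33 with the replicate block (2 pairs, exact p = 0.5), and ran from -1.15 to 0.459 without single libraries (0.459 without CD8 allogeneic JL027-1). Treg against CD4 cells changed sign for the CDR3 alone (1.11), at least 4 libraries (0.48), both prefixes (0.00413), other V genes (0.775) and the replicate block (0.398), and without single libraries ran from -1.29 to 0.625 (above 0 without Treg JL027, 0.46, without Treg JL019-1, 0.625, and without CD4 JL027-1, 0.544). CD8 against CD4 of a recipient passed on TRA (-4.62), with day 0 thinned (-1.90), without the top member (-2.19), for other V genes (-0.434) and with no replicate block (-1.98).

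For the number of members, CDR3 alone passed for Treg-treated against allogeneic in CD4 (-53.5) and CD8 cells (-42.0; exact p = 0.0286 each). As a percent of clonotypes the CD4 differences changed sign (0.381 for allogeneic and 0.388 for Treg-treated against syngeneic, 0.00724 for Treg-treated against allogeneic), and CD8 against CD4 passed (-0.954), as it did for other V genes (-9.79). The replicate block, which needs a shared label, changed no other call; labels did not pair the libraries, and 1 of 8 correlated best with its own number. The lowest totals, near 8194 reads, limit single clonotypes: 0 reads there allow a share of up to 0.0366%.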
